A study of Mus musculus with 2 samples.

Results

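The genes described here make reactive oxygen and nitrogen species in the gut epithelium, or help the enzymes that do. They were chosen by name: Duox2, Duoxa2, Nos2, Nox1 and Cyba. All 5 are among the 17134 genes of the deposited table. They were read in tuft cells, rare chemosensory cells of the intestinal epithelium, sorted from the small intestine of naive mice as cells carrying EpCAM and Siglec-F. The WT library came from mice of genotype Spib+Villin-cre and the Spib_KO library from mice of genotype Spibfl/flVillin-cre, with 1 library each. Mice of both groups carry Villin-cre, which drives Cre recombinase in intestinal epithelial cells, so Spib in cells outside the epithelium is not its target. Spib encodes the ETS family transcription factor Spi-B. The labels give neither the age nor the number of mice behind a library. No difference below has a replicate check, and every interval covers counting error only.

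NADPH oxidases move electrons from NADPH across a membrane to oxygen. The dual oxidase DUOX2 sits at the apical membrane of gut epithelium, releases hydrogen peroxide towards the lumen and needs the maturation factor DUOXA2 to leave the endoplasmic reticulum. NOX1 makes superoxide, is best known from the colon and depends on the membrane partner p22phox, encoded by Cyba, with the organiser NOXO1 and the activator NOXA1. NOS2, the inducible nitric oxide synthase, makes nitric oxide from arginine, and microbes and cytokines induce it and DUOX2 in the intestine.

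The libraries held 17925421 (WT) and 17228665 (Spib_KO) reads assigned to genes. Spib had 6266 reads in WT and 48 in Spib_KO, while the sort genes Epcam and Siglecf had log2 ratios (Spib_KO over WT) of -0.06 and 0.14. The 12 tuft cell markers of a list (Dclk1, Trpm5, Pou2f3 and others) were all present, and none passed the rule of size given next, with a median log2 ratio of 0.05. Enterocyte markers were abundant too, with 16268 CPM (reads scaled to a common library size) in WT and 18174 CPM in Spib_KO summed over 10 genes. Fabp1, a fatty acid binding protein gene, alone set the direction of that sum, with 6968 and 10611 CPM. The other 9 markers summed to 9300.2 and 7563 CPM, and 7 of the 10 had ratios below 0. Because the material is bulk RNA, fewer cells of a type and less RNA per cell cannot be told apart. A gene was called higher or lower where the nearer bound of the 95% counting interval of its ratio passed a 2-fold difference, among 10707 genes with at least 5 CPM and 30 reads in 1 of the libraries or both. By that rule 2.33% of measured genes were higher and 2.18% lower in Spib_KO.

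The members went in different directions. Duoxa2 rose, Nos2 was lost from the Spib_KO library, and Duox2 and Cyba stayed inside the 2-fold rule. Nox1 was too low to be measured. Among the 4 measured members 1 was higher and 1 lower. Nos2 passed the filter on low values only through its WT level, just above the minimum of 5 CPM.

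**Figure D1:**
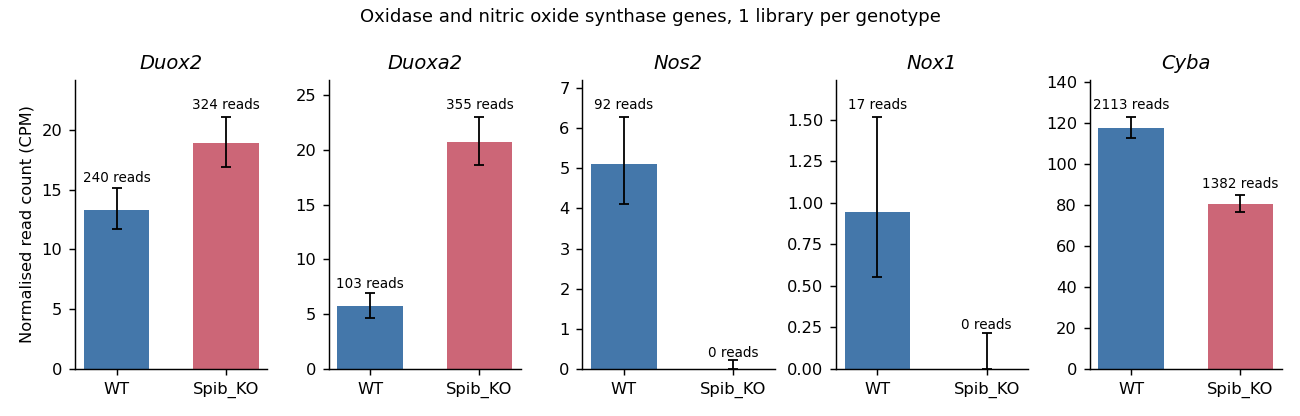
Normalised read count (CPM, vertical axes from 0, a separate scale for each gene) of the 5 genes in the WT and Spib_KO libraries, with 95% Poisson intervals as error bars and read numbers above. Duoxa2 stands at 5.72 CPM in WT and 20.7 CPM in Spib_KO, and Nos2 and Nox1 have 0 reads in Spib_KO.

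Duox2, the hydrogen peroxide producing oxidase, was read 240 times in WT, which is 13.3 CPM (counting interval 11.7 to 15.1), and 324 times in Spib_KO, which is 18.9 CPM (16.9 to 21.1). The Spib_KO library was the higher, with intervals that do not overlap. The log2 ratio was 0.50 (95% interval 0.26 to 0.75), a 1.41-fold difference that did not pass the rule. Of the 10707 measured genes, 1425 had a higher ratio.

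Duoxa2, the maturation factor of DUOX2, was read 103 times in WT, which is 5.72 CPM (4.67 to 6.94), and 355 times in Spib_KO, which is 20.7 CPM (18.6 to 23.0). It rose 3.60-fold (log2 ratio 1.85, interval 1.53 to 2.18). Only 118 measured genes had a higher ratio. The maturation factor therefore differed more than its oxidase. The log2 ratio of Duoxa2 exceeded that of Duox2 by 1.35 (exact conditional interval 0.94 to 1.77), a comparison within each library that does not depend on how the libraries are scaled. Per length, the deposited TPM of Duoxa2 was 1.81 times that of Duox2 in WT and 4.54 times in Spib_KO.

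Duox2 and Duoxa2 lie head to head on chromosome 2 (Duox2 from 122279246 to 122298740, Duoxa2 from 122298900 to 122302885, GRCm38.p6), with 159 bases between their RefSeq spans. The paralogous pair Duoxa1 and Duox1 follows directly. Duoxa1, the maturation factor of DUOX1, was read 18 times in WT against 131 times in Spib_KO (log2 ratio 2.90, interval 2.22 to 3.73). Duox1, a second dual oxidase best known from airway and thyroid, was read 23 and 125 times (log2 ratio 2.48, interval 1.86 to 3.22). Both rose, by 7.45-fold and 5.60-fold, from WT levels near 1 CPM, and both passed the filter only through Spib_KO, where they stood at 7.63 and 7.28 CPM. They were looked at as partners of the listed members.

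All 4 genes of the cluster had more reads in the Spib_KO library, and Duox2 had the smallest ratio. The ratio of Duox1 exceeded that of Duox2 by 2.01 on the log2 scale (1.31 to 2.76), and that of Duoxa1 exceeded that of Duoxa2 by 1.08 (0.28 to 1.94). Duoxa1 and Duox1 had overlapping intervals, with a difference of 0.42 (-0.61 to 1.47). Summed, the 4 genes had 384 reads in WT and 935 in Spib_KO, 21.3 and 54.5 CPM. Of their RefSeq spans only those of Duoxa1 and Duox1 overlap, sharing 754 bases on opposite strands. The library chemistry does not keep strand, so reads there cannot be told apart. The deposited Spib_KO counts of Duox2, Duox1 and Duoxa1 are not whole (323.71, 124.53 and 130.76) and are thus estimates. The genes on either side of the cluster were not called. Sord, beside Duox2, had a log2 ratio of -0.44 (-0.57 to -0.32), and Shf, beside Duox1, had 0.44 (0.20 to 0.69). None of the 10 enterocyte markers was called (median ratio -0.25), beside 2.33% higher and 2.18% lower of all measured genes. None was at 0, with the summed levels given above, and the part of these markers in the DUOX difference was not tested.

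**Figure D2:**
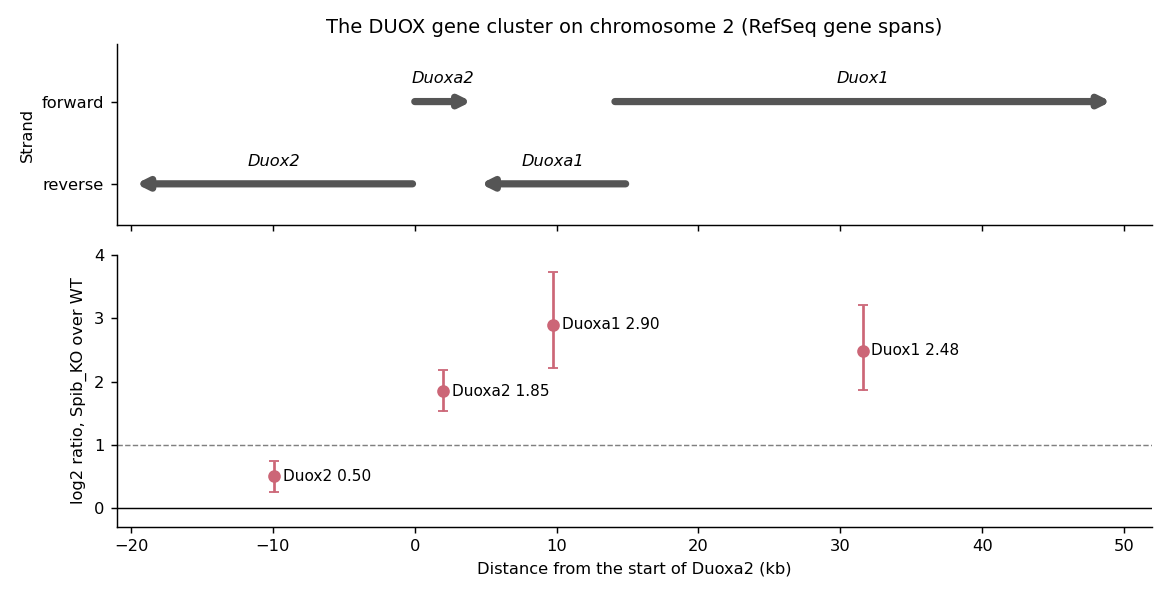
Top, RefSeq spans and strands of the 4 DUOX genes by distance from the start of Duoxa2 (kb). Bottom, log2 ratio of Spib_KO over WT at the middle of each gene with its 95% counting interval, and a dashed line at 1. Duox2 at 0.50 lies below the line and Duoxa2, Duox1 and Duoxa1 at 1.85, 2.48 and 2.90 lie above it.

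The 250 bases before the annotated starts of the 3 cluster genes that rose are shown because these genes are adjacent and rose together. They are from RefSeq on GRCm38.p6, written 5′ to 3′ on the strand of the gene: chr2:122298650-122298899 (plus) for Duoxa2, chr2:122313731-122313980 (minus) for Duoxa1 and chr2:122315422-122315671 (plus) for Duox1. The start used for Duoxa2 is the edge of its RefSeq span, while that of Duoxa1 lies 33 bases and that of Duox1 2662 bases inside the span of the gene, so the Duox1 window stands before an internal start. Capitals mark matches, on either strand, to GAGGAA, a form of the purine-rich core read by ETS factors, to ATTTGCAT, the octamer read by POU factors, and to TATAAA, the TATA box.
Duoxa2: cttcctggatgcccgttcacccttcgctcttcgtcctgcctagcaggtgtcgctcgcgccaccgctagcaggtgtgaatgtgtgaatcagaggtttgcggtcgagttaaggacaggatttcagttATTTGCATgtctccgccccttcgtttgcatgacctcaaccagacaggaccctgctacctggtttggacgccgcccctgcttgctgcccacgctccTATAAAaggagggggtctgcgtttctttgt
Duoxa1: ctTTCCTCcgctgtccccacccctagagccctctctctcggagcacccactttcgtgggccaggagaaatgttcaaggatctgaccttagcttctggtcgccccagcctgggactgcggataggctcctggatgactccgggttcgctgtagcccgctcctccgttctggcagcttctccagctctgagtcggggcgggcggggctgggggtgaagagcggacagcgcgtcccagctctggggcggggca
Duox1: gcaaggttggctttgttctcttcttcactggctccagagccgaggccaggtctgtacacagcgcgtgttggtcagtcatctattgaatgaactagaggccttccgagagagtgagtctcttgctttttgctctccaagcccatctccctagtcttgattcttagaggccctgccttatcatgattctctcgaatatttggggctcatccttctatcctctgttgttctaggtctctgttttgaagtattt

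The Duoxa2 window holds the octamer at 125 to 118 bases and the TATA box at 30 to 25 bases before the start. The Duoxa1 window holds GAGGAA on the opposite strand, 248 to 243 bases before the start, and the Duox1 window holds none of the 3 motifs. Among 32851 RefSeq promoter windows of this length, 1.6% hold the octamer, 12.4% TATAAA and 23.3% GAGGAA. The motifs were chosen after the sequences had been read, so these shares cannot show that a match is unusual. Of the other members, Nox1 has GAGGAA at 23 to 18 bases before a start that lies 25857 bases inside its RefSeq span. The windows of Duox2, before a start 513 bases inside its span, and of Cyba, before the edge of its span, hold none of the motifs. The motifs do not overlap each other in these windows, and a match describes letters only. GAGGAA was the only form of the ETS core searched, so a window without it may hold other forms.

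Nos2 (chromosome 11, 78920787 to 78960226) was present in WT and absent from the reads of Spib_KO. WT gave 92 reads, which is 5.11 CPM (4.12 to 6.27), and Spib_KO gave 0. Against a floor of 3 counts, which is 0.175 CPM in that library, it was at least 29.2-fold lower with the WT count taken as read. The nearer bound of the 95% interval of the log2 ratio, which also covers the counting error of WT, was -4.54. The genes beside it did not pass the rule: Lgals9 had a log2 ratio of -0.12 and Lyrm9 one of 0.73. The other synthases were near the floor in both libraries, with 4 and 2 reads for the neuronal gene Nos1 and 8 and 14 for the endothelial gene Nos3.

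The supply side of nitric oxide synthesis lay mostly inside the 2-fold rule. Of 19 listed genes 16 were measured, with a median log2 ratio of 0.04 beside 0.01 for all measured genes. Of these 1 was higher and none lower, beside 2.33% and 2.18% of all measured genes, and 15 passed neither bound. The higher gene was Ddah1, which encodes an enzyme that degrades asymmetric dimethylarginine, a natural inhibitor of nitric oxide synthases. It rose 5.53-fold, with 207 reads in WT against 1094 in Spib_KO (log2 ratio 2.47, interval 2.25 to 2.69). Its paralogue Ddah2 had 106 and 171 reads and a ratio of 0.76 (0.40 to 1.12). Ass1, which rebuilds arginine from citrulline, had 103 and 45 reads, a ratio of -1.12 whose interval (-1.66 to -0.61) reaches inside the 2-fold bound. Of the arginine carriers, Slc7a2 had 159 and 90 reads, a ratio of -0.75 (-1.14 to -0.37), and Slc7a1 had a ratio of 0.06. Gch1, the entry enzyme to the cofactor tetrahydrobiopterin, had a ratio of -0.20, and the cofactor genes Pts, Spr and Qdpr had 0.17, 0.10 and -0.31. Arg2, a mitochondrial arginase that uses the same substrate, was the most abundant gene of this list by TPM, at 486 in WT and 342 in Spib_KO, with a log2 ratio of -0.48.

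Many but not all markers of other cells moved with Nos2, and their part in its loss was not tested. The 9 macrophage and dendritic markers that the table holds summed to 38.0 CPM in WT against 24.6 in Spib_KO, and Csf1r and C1qa, with 5 and 13 reads in WT, had 0 in Spib_KO. Lyz2 fell from 110 to 9 reads, whereas Adgre1 had 135 and 230. The 10 T cell markers summed to 54.6 and 5.77 CPM, and Cd4 and Cd3d, with 1 and 20 reads in WT, had 0 in Spib_KO. The 3 mast cell markers summed to 3.83 and 0.117 CPM, with Mcpt1 at 59 and 0 reads and Cpa3 at 10 and 0. The 5 B and plasma cell markers summed to 5.83 and 2.39 CPM, with Cd79a at 7 and 0 reads. The 9 Paneth cell markers summed to 2614 and 979 CPM with none at 0. Of these, 8 were lower, beside 2.18% of all measured genes, while Ang4 had a log2 ratio of 0.75. The 9 enteroendocrine markers summed to 136 and 42.2 CPM with Gcg and Tph1 at 0 in Spib_KO, whereas Gip rose from 41 to 144 reads (log2 ratio 1.87, interval 1.37 to 2.42). The 8 goblet cell markers summed to 2232 and 1391 CPM, and Clca1 had a ratio of 0.68. Of the 8, 3 were lower and none higher, beside 2.18% and 2.33% of all measured genes. Neutrophil markers were at 6.67 and 7.17 CPM over 6 genes, and eosinophil markers at 0.222 and 0.117 CPM over 3.

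Nox1 (X chromosome, 134086421 to 134137711) was barely detected. The deposited table gives 17.46 reads in WT, rounded to 17, or 0.945 CPM (0.550 to 1.51), against 0 in Spib_KO. Against the floor this is at least 5.40-fold lower with the WT count taken as read, while the nearer bound of the 95% interval of the log2 ratio was -1.98. The gene lies below the minimum for a measured gene. Its RefSeq span shares 402 bases with Cstf2, a far more abundant gene with 824 and 611 reads. The cell marker sums given beside Nos2 were lower in Spib_KO like Nox1, except that of neutrophils, and single markers such as Adgre1 and Gip were higher. Their part in the Nox1 difference was not tested.

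Cyba (chromosome 8, 122424771 to 122432940), which encodes the p22phox subunit that stabilises NOX enzymes, was the most abundant member. It was read 2113 times in WT, which is 117 CPM (112 to 123), and 1382 times in Spib_KO, which is 80.5 CPM (76.3 to 84.9). The Spib_KO level was 68.6% of that in WT, a log2 ratio of -0.54 (-0.64 to -0.45), inside the 2-fold rule and lower than the ratios of 9526 measured genes.

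Per length the order of the members was the same in both libraries as far as they were detected. By deposited TPM, WT held Cyba at 276, Duoxa2 at 5.27, Duox2 at 2.91, Nos2 at 1.64 and Nox1 at 0.52. Neighbours in that order did not overlap in their counting intervals. Spib_KO held Cyba at 182, Duoxa2 at 18.7 and Duox2 at 4.11, with Nos2 and Nox1 listed at 0. Cyba ranked 597 of 17134 genes in WT and 823 in Spib_KO, and Duoxa2 moved from rank 8550 to 4940.

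**Figure D3:**
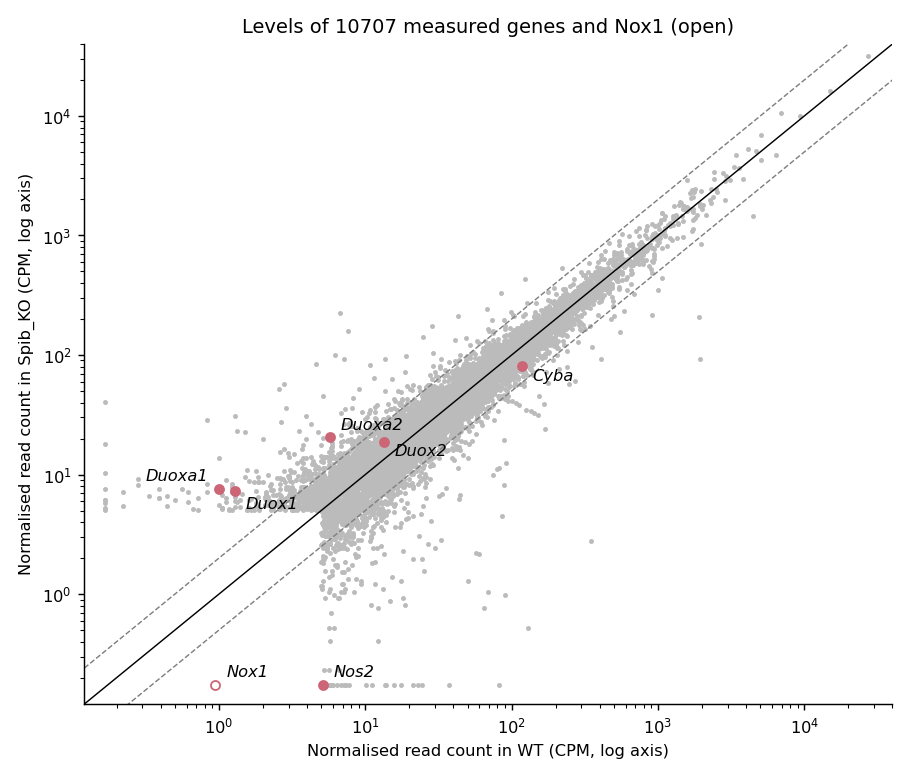
Normalised read count in WT (horizontal) and in Spib_KO (vertical), both in CPM on log axes, for 10707 measured genes (grey) and the DUOX genes, Nos2, Nox1 and Cyba (red, with Nox1 open because it was not measured). Genes without reads are drawn at the floor of 3 counts, the solid line marks equal levels and the dashed lines a 2-fold difference. Duoxa2, Duox1 and Duoxa1 lie above the upper dashed line and Nos2 lies at the floor.

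The catalytic partners of Cyba had few reads in these cells. Cybb, the phagocyte oxidase NOX2, had 2 reads in WT and 3 in Spib_KO. Nox4, which needs p22phox alone, had 25 and 3 reads (interval of the log2 ratio -5.36 to -1.28). Together with Nox1 these catalytic genes stood at or under 0.52 TPM in either library, against 276 and 182 TPM for Cyba. Of 16 oxidase partners found, 9 were measured, with a median log2 ratio of -0.00. Of these 2 were higher (Duox1 and Duoxa1) and none lower, beside 2.33% and 2.18% of all measured genes, and 7 passed neither bound. Duox1 and Duoxa1 could enter the measured genes only through their Spib_KO level, so their count says nothing of the list.

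The organiser and the activator of NOX1 did not go the same way. Noxo1, the organiser that tethers the NOX1 complex to the membrane, was read 1007 times in WT against 1755 in Spib_KO, and its log2 ratio of 0.87 (0.76 to 0.98) stopped short of the rule. Noxa1, the activator of NOX1, had 392 and 230 reads, a ratio of -0.70 (-0.94 to -0.46). The ratio of Noxo1 exceeded that of Noxa1 by 1.57 on the log2 scale (1.31 to 1.84) and that of Cyba by 1.41 (1.26 to 1.56). Noxa1 and Cyba had closer ratios, with a difference of -0.16 (-0.42 to 0.10). Noxa1 shares 53 bases with Entpd8, and Noxo1 lies 77 bases from Gfer and 122 from Tbl3.

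The GTPases that activate these complexes were present in both libraries. By TPM, Rac2, the form best known from blood cells, stood at 299 in WT and 249 in Spib_KO, and the ubiquitous Rac1 at 49.8 and 50.4. Their log2 ratios were -0.25 (-0.29 to -0.21) and 0.04 (-0.07 to 0.14). Rac3 was at 7.52 and 4.67 TPM. The phagocyte subunit genes Ncf1 (p47phox) and Ncf4 (p40phox) were nearly undetected, with 1 and 0 reads and with 14 and 2. Cybc1, a chaperone of the NOX2 and p22phox pair, had 946 and 901 reads and a ratio of -0.00 (-0.14 to 0.13).

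**Figure D4:**
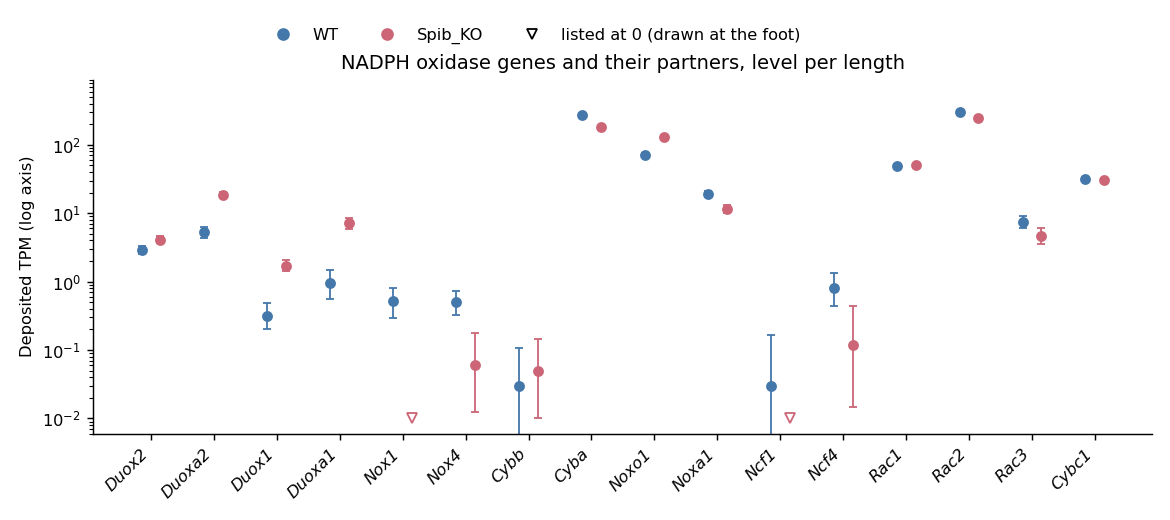
Deposited TPM on a log axis for the DUOX and NOX genes and their partners in WT (blue) and Spib_KO (red), with 95% Poisson counting intervals scaled to TPM, and open triangles for values listed at 0. Cyba, Noxo1, Rac1 and Rac2 stand at 49.8 or more in both libraries, and Nox1, Nox4 and Cybb at 0.52 or less.

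Enzymes that remove oxidants were largely level. Of 31 antioxidant genes 29 were measured, 1 was higher and 1 lower, beside 2.33% and 2.18% of all measured genes, and the median log2 ratio was -0.08. Sod3, the extracellular superoxide dismutase, rose 2.71-fold, with 127 reads in WT against 329 in Spib_KO (log2 ratio 1.44, interval 1.14 to 1.75). Gpx3, the secreted glutathione peroxidase, fell 3.68-fold, with 198 reads against 51 (log2 ratio -1.88, interval -2.36 to -1.44). The cytosolic enzymes Sod1 and Gpx1 had ratios of -0.12 and -0.11. Among other oxidant sources none of 6 measured genes was called, beside 2.33% higher and 2.18% lower of all measured genes. Their median was 0.03. Maoa, a mitochondrial monoamine oxidase, had a ratio of -0.39.

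Genes that sense the signals known to induce Duox2 and Nos2 were not called. Of 32 receptors and factors 25 were measured, with a median log2 ratio of -0.16. Among them 0 were higher and 0 lower, beside 2.33% and 2.18% of all measured genes. Stat3, which acts downstream of the IL-22 receptor, had 2478 and 1264 reads, a ratio of -0.90, the lowest among the measured genes of this list. Nfkb1, a subunit of NF-kB, had the highest, 0.69 (0.48 to 0.90). The receptor genes Il22ra1, Il17rc and Il17ra had ratios of -0.51, -0.55 and 0.05, and Nfkbia, an inhibitor and target of NF-kB, had 0.03. Irf1, a factor of the interferon response that acts on Nos2, had -0.04. Tlr2 and Tlr4, with 22 and 10 reads in WT, had 0 in Spib_KO.

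Other products that the epithelium makes in response to microbes were lower wherever they were called. Of 13 such genes found, 7 were measured, with a median log2 ratio of -0.67, 5 of them below 0 and 2 above. Among the 7, 3 were lower and 0 higher, beside 2.18% and 2.33% of all measured genes. The list was chosen with earlier results of these data known, so its count cannot show an excess. The 3 were the lectin genes Reg3b and Reg3g and the cytokine gene Il18. Reg3b and Reg3g had ratios of -4.38 and -3.20. Il18 fell from 1028 to 376 reads, a ratio of -1.38 (-1.56 to -1.21), and its span overlaps Bco2 (ratio -0.89) and Tex12. The acute phase genes Saa1 and Saa3 had 8 and 9 reads in WT and 2 and 4 in Spib_KO, while the chemokine gene Ccl20 had 32 and 54. The polymeric immunoglobulin receptor gene Pigr had a ratio of -0.20, and Fut2 and Zbp1 had 0.13 and 0.15. The lower Paneth cell markers given beside Nos2 moved with this group too, and their part was not tested.

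**Figure D5:**
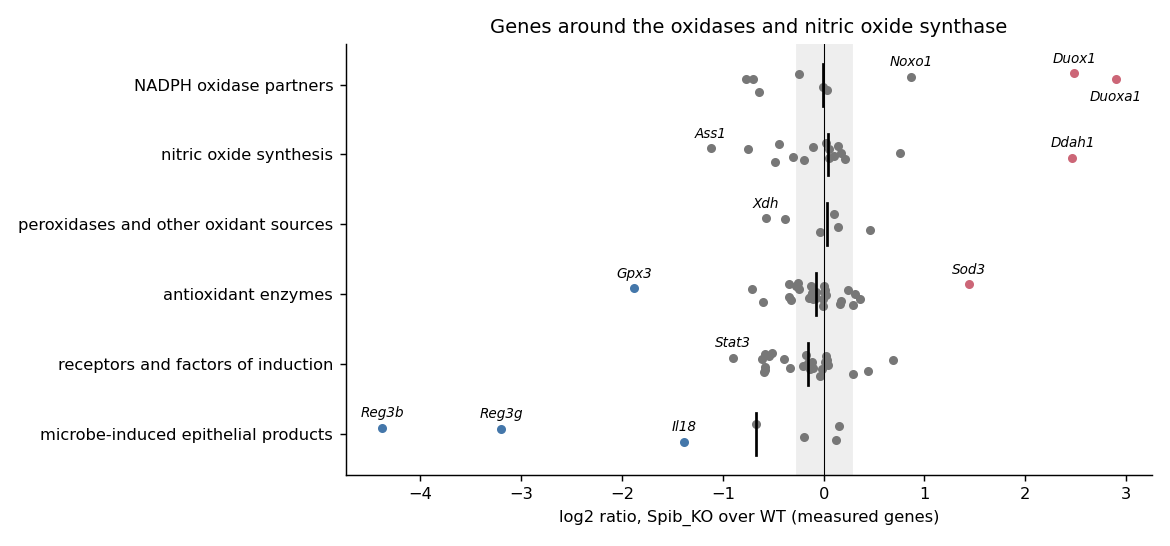
Log2 ratio of Spib_KO over WT for the measured genes of 6 lists (points, spread vertically for legibility, red called higher and blue called lower), with the median of each list as a black bar and the middle quartiles of all measured genes as a grey band. Duox1, Duoxa1, Ddah1 and Sod3 lie to the right of the band and Reg3b, Reg3g, Gpx3 and Il18 to the left.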

How the data were processed

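Tuft cells of each genotype gave 1 RNA-seq library, made per the labels' protocols from TRIzol RNA by a Smart-seq2 type amplification and a transposase. HISAT, Bowtie2 2.2.3 and mm10 are named in the submitters' processing notes, and the counting program is not given in the sources used here. Each gene has a read count, a TPM value and an FPKM value per the file headers. The authors' read counts are expected counts, because 19.0% and 18.6% of values are not whole, and were rounded.

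Library sizes were scaled with TMM (edgeR 4.0.16, R 4.3.3), giving effective totals of 17996059 and 17161039. Log2 ratios used a prior count of 0.5, exact conditional binomial (Clopper-Pearson) 95% intervals and a floor of 3 counts. Python 3.11.15 and scipy 1.17.1 were used. The interval procedure was run on simulated Poisson counts, the model it assumes, without amplification or differences between mice. That run checks the code and not how well the intervals suit these libraries. With 1 library per genotype no test was possible. Deposited TPM served to compare genes per length, and TPM and FPKM were also alternatives on the log2(value + 1) scale.

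The members and the gene lists were chosen with earlier results of these data known, and the motifs after the sequences had been read. Named genes were the members and their partners, neighbouring or overlapping genes, the called genes of each list, and genes nearest to a member in level. Others of a list were named for their role after their values were seen. Promoter windows came from RefSeq (GRCm38.p6, the assembly of mm10), where 4 of 5 members matched. Some items of the lists are not reported here. No molecular identifiers are named, so reads are not independent molecules.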

Additional observations from a re-analysis of the deposited data

How the results depend on the processing

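Each ratio of a member kept its sign and stayed within its counting interval under each scaling, prior count and unit that was run. Of 60 values recomputed, 14 moved, all of them counts of called genes, and 0 reversed. Scaling by size factors, total counts or the upper quartile shifted log2 ratios by -0.01 to 0.01. No ratio was computed for Nos2 and Nox1 from TPM or FPKM, where Spib_KO is listed at 0, or with another prior count, which does not enter a bound.

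The members called depend on the rule. With a 4-fold bound 0 members were higher, since Duoxa2 no longer passed. Nos2 was no longer called with deposited TPM, deposited FPKM or a CPM minimum of 20, which left 0 members lower, because it lies under those minimums. Without the filter 2 were lower, Nos2 and Nox1. Duox1 was not called with TPM or FPKM, or at 4-fold, and neither it nor Duoxa1 was measured at 20 CPM. Over all genes the rule gave 250 higher and 233 lower. Dropping the filter gave 595 and 716 and a 20 CPM minimum 101 and 106, which follows from how many genes each admits. The point estimate gave 425 and 419 and the 4-fold bound 65 and 88, by a different threshold on the same measured genes. Deposited FPKM gave 165 higher against 203 with deposited TPM. The minimum of 5 was the same, and FPKM values were the smaller, as for Duoxa2 in Spib_KO (14.8 against 18.7). The cause was not tested.

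No paired analysis was possible because each genotype has 1 library. Depth limits the genes with few reads, among them Nox1, Nox4, Cybb, Ncf1 and Ncf4, with at most 25 reads in a library.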

Other observations

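The measured genes closest to a member in both libraries at once were found by the distance between log2 CPM values, over 2 libraries. For Duoxa2 they were Dusp14, with 92 reads in WT and 349 in Spib_KO, Pmp22, with 107 and 315, and Atp23, with 122 and 370. For Duox2 they were Smcr8, Gtpbp8 and Zdhhc1, with log2 ratios of 0.50, 0.49 and 0.49. For Cyba they were H2-T3, Nrgn and Btnl4, with log2 ratios of -0.52, -0.59 and -0.47.

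Cyba lies 1131 bases from Il17c, a cytokine gene of epithelium with 12 reads in WT and 16 in Spib_KO, and 655 bases from Mvd, an enzyme gene of cholesterol synthesis with a log2 ratio of -0.26. Gpx7, a glutathione peroxidase gene too low to be measured, had 1 read in WT and 34 in Spib_KO (interval of the log2 ratio 2.58 to 10.5). It was chosen after its values were seen.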
